A study of Mus musculus with 12 samples.

Results

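Lymphatic endothelial cells are the cells that line the lymph-carrying sinuses of a lymph node. In the mouse lymph nodes studied here they were picked out of single-cell RNA libraries by their own transcripts. A cell was taken as lymphatic when it held at least 2 UMIs (counted RNA molecules) of Prox1 and Mmrn1 together and at least 1 of Pecam1 and Cdh5, with none of Ptprc, Cd79a, Cd3e, Fut7 or Chst4. The last 5 genes mark blood cells and high endothelial venules. The gate took 2434 of the 35647 cells kept in the 4 libraries compared, and the whole series of 12 libraries held 95358 kept cells. A kept cell had at least 1000 UMIs, at least 500 genes and at most 10% mitochondrial UMIs.

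The 4 libraries were CD31 fractions, sorted for an endothelial surface marker. They came from vehicle-treated mice and from mice on day 3 after 4% oxazolone, a contact sensitiser, was painted on the abdomen in 50 µl of acetone and olive oil. Vehicle mice received the solvent alone. Each treatment had 1 library labelled Cre-negative and 1 labelled Cre-positive. Every mouse was C57BL/6, 7 to 10 weeks old, carried the floxed allele ATG12 fl/fl and received tamoxifen 5 times. The Cre-positive mice also carried CDH5 CreER, a tamoxifen-inducible recombinase driven by an endothelial promoter. Lymph nodes were digested and depleted of CD45-positive cells before sorting. The number and sex of the mice behind each library were not given in the sources used here. The spread between libraries may therefore be partly technical, and no group had a second library. All values below are given with the Cre-negative library before the Cre-positive one.

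As background, the lymphatic vessels of a lymph node form a subcapsular sinus with a ceiling and a floor, and cortical and medullary sinuses deeper in the node. Prox1 is the transcription factor that keeps lymphatic identity. The ceiling is known for Ackr4, a scavenger receptor for chemokines, the floor for the adhesion molecule Madcam1 and the chemokine Ccl20, and the cortical and medullary sinuses for Lyve1, a hyaluronan receptor, and Marco, a scavenger receptor. Antigen and dendritic cells arrive from the skin through these sinuses. In contact sensitisation the draining node swells and its vessels grow over several days.

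The gated cells carried lymphatic markers at like summed levels in all 4 libraries, while the vehicle libraries differed in Lyve1. A Lyve1 UMI was found in 25.4% and 41.8% of lymphatic cells under vehicle and in 37.2% and 38.1% at day 3. Over 8 markers that the gate did not use (Flt4, Pdpn, Lyve1, Reln, Ccl21a, Nrp2, Sox18 and Nr2f2), the summed level was 1449 and 1728 CPM in the vehicle libraries and 1412 and 1622 CPM at day 3. CPM here means UMIs of a gene per 1000000 UMIs, summed over the lymphatic cells of 1 library. The libraries held 785 and 691 lymphatic cells with 5970613 and 5603634 UMIs under vehicle, and 452 and 506 cells with 3813827 and 4423025 UMIs at day 3. Their median depth ran from 7133 to 8317 UMIs a cell. Free RNA, estimated from immunoglobulin transcripts, gave 0.497% to 0.792% of the UMIs. No pair of libraries shared more than 31 cell barcodes or more than 1 lymphatic one. Cells just outside the gate, with 1 UMI of Prox1 and Mmrn1, had lymphatic marker levels of 165 to 388 CPM, and those just inside, with 2 UMIs, had 383 to 531 CPM. The blood endothelial genes Flt1, Emcn and Plvap summed to 1969 to 3619 CPM just outside and to 1040 to 2269 CPM just inside, above the lymphatic markers in both.

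The vehicle Cre-positive library stood apart from the others in the sex of its cells. A Y-linked UMI was found in 42.7% and 83.9% of lymphatic cells under vehicle and in 20.8% and 52.0% at day 3. A UMI of Xist, the transcript of the inactive X chromosome, was found in 46.2% and 0.145% under vehicle and in 75.9% and 32.8% at day 3. The other 3 libraries mixed cells with either mark, and the vehicle Cre-positive library held almost none with Xist. Results are therefore also given without that library, or over the cells with a Y-linked UMI and no Xist (301 and 579 vehicle cells, 79 and 239 day 3 cells). The part of sex and that of treatment cannot be told apart beyond those values.

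Atg12, the floxed gene, encodes a protein joined to Atg5 during autophagosome formation. Its level was 59.6 and 81.7 CPM under vehicle and 49.8 and 69.6 CPM at day 3, higher in the Cre-positive library each time. The assay counts 3' ends of transcripts and the deleted part was not given, so this level does not check the labels. None of 28 autophagy genes was called at day 3, where 1.42% of all genes were, and their median log2 difference was -0.12.

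Lymphatic cells made up a smaller part of the endothelial cells at day 3. They were 16.6% (95% Clopper-Pearson interval 15.6 to 17.7) and 15.4% (14.4 to 16.5) of lymphatic and blood endothelial cells under vehicle. At day 3 they were 11.04% (10.1 to 12.0) and 8.78% (8.06 to 9.54). Both day 3 shares lay below both vehicle shares, and the intervals did not overlap between treatments. On day 7, given as a description, the shares were 21.1% and 25.8%, above all 4. With 2 libraries a treatment an exact permutation test cannot go below p = 0.333, so no test was made, and the intervals cover counting error only. Sorting and CD45 depletion can set such shares. A fall in lymphatic cells and a rise in blood endothelial cells cannot be told apart from a share.

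Of 12716 genes tested in lymphatic cells, 128 were called higher (1.01%) and 52 lower (0.409%) at day 3. A call needed an adjusted p below 0.05 in edgeR's quasi-likelihood test with genotype as an additive term, and the same direction in the Cre-negative pair and the Cre-positive pair of libraries. Of the 128 genes, 120 had both day 3 libraries above both vehicle libraries, and of the 52 genes 42 had both below, against 15.7% and 19.3% of all genes tested. Because the calls were made on these same libraries, much of that separation is built in. The numbers of calls depend strongly on the spread assumed. The fit left 1 residual degree of freedom and took its spread from all genes, and 913 genes had an unadjusted p below 0.05. DESeq2 called 24, and a fit that shared its spread over all 6 CD31 libraries called 0 with 956 below an unadjusted 0.05. Fits with 1 library left out hold 3 libraries and no genotype term, so these choices changed together; dropping that term alone, with all 4 libraries, left 6 calls. Without the vehicle Cre-positive library there were 42 calls, without the day 3 Cre-negative library 9, without the day 3 Cre-positive library 16 and without the vehicle Cre-negative library 267.

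Several of the genes with the largest rises belonged to the cell cycle. Pclaf, the PCNA-associated factor that acts at replication forks, had the largest rise of the named genes. It was at 9.21 and 2.14 CPM under vehicle and at 44.3 and 30.5 CPM at day 3. The vehicle Cre-positive level was 12 UMIs, 11 of them in 1 cell. Both day 3 libraries lay above both vehicle libraries, a difference of 2.93 on the log2 scale (SE 0.32, 7.62-fold, adjusted p = 5.77e-17). Without the vehicle Cre-positive library the difference was 2.05 (adjusted p = 0.00308), without the day 3 Cre-negative library 2.50 (adjusted p = 0.147), and over Y-linked cells 2.58 (adjusted p = 5.66e-07).

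Genes of mitosis rose with it. Birc5 encodes survivin, a subunit of the chromosomal passenger complex. It stood at 26.6 and 2.50 CPM under vehicle and at 41.7 and 42.1 CPM at day 3 (log2 difference 2.10, SE 0.32, adjusted p = 6.21e-08). Its SE, like that of every gene in this fit, comes from a spread shared over genes and not from its own pairs. The Cre-negative pair differed by 0.62 and the Cre-positive pair by 3.94, so most of this rise came from the low vehicle Cre-positive library. Ube2c, the ubiquitin-conjugating enzyme of the anaphase-promoting complex, had the same pattern, with 25.0 and 1.78 CPM under vehicle and 36.2 and 29.6 CPM at day 3 (log2 difference 1.95, adjusted p = 7.14e-07). Cks2, a subunit that binds cyclin-dependent kinases, was at 31.7 and 8.03 CPM and then 49.8 and 59.0 CPM (log2 difference 1.73, adjusted p = 1.38e-05). Its relative Cks1b was at 20.8 and 8.21 CPM and then 46.1 and 39.6 CPM (log2 difference 1.71, adjusted p = 4.84e-06). In each of these genes the lowest library was the vehicle Cre-positive one and the treatments did not overlap.

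Over a list of 34 cell cycle genes, 14 were called higher and none lower, where 1.01% of all genes tested were called higher. All 34 had a difference above 0, and 31 were higher in both pairs, as were 3008 of all 12716 genes. In 25 of the 34 both day 3 libraries lay above both vehicle libraries, against 15.7% of all genes. The list's median log2 difference was 1.14, against -0.01 over all genes tested. It was 0.64 in the Cre-negative pair and 1.81 in the Cre-positive pair. Without the vehicle Cre-positive library the median was 0.48 and no member was called. Without the vehicle Cre-negative library it was 2.04, and the 14 calls held. None of the 14 was called by DESeq2, without an expression filter, without the genotype term or over all 6 CD31 libraries. Leaving out either day 3 library ended all 14 calls, with medians of 0.81 and 1.04. Over Y-linked cells the median was 1.08 with 6 of 33 tested members called (Nusap1, Tpx2, Mki67, Ccnb2, Cdk1 and Rrm2).

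The members that rose covered several steps of division. Mki67, the gene of the Ki-67 protein of cycling cells, was at 25.6 and 11.2 CPM under vehicle and at 50.9 and 36.4 CPM at day 3 (log2 difference 1.35, SE 0.29, adjusted p = 0.000698). Top2a, the topoisomerase that untangles replicated DNA, was at 48.7 and 12.5 CPM and then 77.9 and 51.5 CPM (log2 difference 1.35, adjusted p = 0.00161). Rrm2, a subunit of ribonucleotide reductase, which makes deoxynucleotides, was at 4.86 and 0.714 CPM and then 16.0 and 9.50 CPM (log2 difference 2.40, adjusted p = 4.12e-07). All 3 were higher in each day 3 library than in either vehicle library. Cdk1, the kinase that drives entry into mitosis, was at 14.2 and 2.50 CPM and then 28.8 and 13.8 CPM (log2 difference 1.62, adjusted p = 6.96e-05). Its vehicle and day 3 libraries overlapped slightly. The other called members were Ccnb2, Ccna2, Aurkb, Tpx2, Nusap1, Cenpf, Tk1 and Uhrf1. Genes of the replicative helicase (Mcm2 to Mcm7) and Pcna, the sliding clamp of DNA polymerase, were not called. Pcna was at 63.0 and 55.7 CPM under vehicle and 97.8 and 68.7 CPM at day 3 (adjusted p = 0.919).

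The promoters of 4 called members are shown because members of the list moved together. They were chosen after their values were seen, from abundant members whose windows lie outside annotated gene bodies. Each run is the 200 bases before the gene's RefSeq start in GRCm38.p6, read 5' to 3' on the gene's strand. Capitals mark matches on either strand to CCAAT, the motif of the factor NF-Y, to TTTGAA, the core of the cell cycle homology region, or to a motif of E2F factors, spelled TTCCCGC in one form and TTGGCGC in the other. A match on the opposite strand appears as its reverse complement. Mki67 lies at chr7:135716380-135716579 (minus strand), Top2a at chr11:99024190-99024389 (minus strand), Ccnb2 at chr9:70421555-70421754 (minus strand) and Birc5 at chr11:117849037-117849236 (plus strand).
Mki67: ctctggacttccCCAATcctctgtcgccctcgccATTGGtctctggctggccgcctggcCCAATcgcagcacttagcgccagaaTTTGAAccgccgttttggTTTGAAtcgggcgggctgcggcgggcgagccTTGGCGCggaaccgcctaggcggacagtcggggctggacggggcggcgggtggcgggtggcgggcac
Top2a: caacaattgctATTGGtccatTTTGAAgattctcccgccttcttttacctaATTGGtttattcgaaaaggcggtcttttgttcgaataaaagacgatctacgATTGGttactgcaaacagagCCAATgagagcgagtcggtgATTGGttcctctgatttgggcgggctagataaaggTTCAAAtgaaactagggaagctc
Ccnb2: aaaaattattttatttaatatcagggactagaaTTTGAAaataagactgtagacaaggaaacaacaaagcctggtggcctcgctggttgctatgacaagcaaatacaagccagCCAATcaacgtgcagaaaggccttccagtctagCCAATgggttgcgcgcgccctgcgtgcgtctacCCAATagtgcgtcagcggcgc
Birc5: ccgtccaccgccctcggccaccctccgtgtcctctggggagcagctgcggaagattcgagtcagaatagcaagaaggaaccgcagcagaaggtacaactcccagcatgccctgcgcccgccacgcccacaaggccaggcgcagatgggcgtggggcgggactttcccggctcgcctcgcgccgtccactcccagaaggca
The Top2a window held 5 CCAAT matches, those of Mki67 and Ccnb2 held 3 each, and that of Birc5 held no match to any of the motifs. Of the 34 members, 27 had a promoter in the RefSeq table, and 20 of these (74.1%) held CCAAT, against 37% of 9851 tested genes and 32.7% of all 27025 genes in the table. TTTGAA stood in 8 of the 27 (29.6%) against 9.62% of tested genes, and an E2F motif in 8 (29.6%) against 10.1%. The letters describe these windows and say nothing of binding in these cells.

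UMIs of Mki67 or Top2a were found in a minority of cells. A UMI of Mki67 or Top2a was found in 79 (10.1%) and 37 (5.35%) lymphatic cells under vehicle and in 65 (14.4%) and 92 (18.2%) at day 3. After each cell was thinned to 1000 UMIs, to remove differences in depth, a Mki67 UMI was left in 1.78% (95% interval 0.978 to 2.97) and 0.434% (0.0896 to 1.26) of vehicle cells and in 2.43% (1.22 to 4.31) and 2.57% (1.37 to 4.35) of day 3 cells. The vehicle Cre-negative interval overlapped both day 3 intervals. B cells of the same libraries, which can also divide, held a thinned Mki67 UMI in 2.46% and 1.17% under vehicle and in 0.466% and 1.81% at day 3, at median depths of 2901 to 3418 UMIs. The lymphatic shares lie in about the same range, so they are not read as a number of dividing cells. Inside the cells with Mki67 or Top2a, Pclaf was at 55.2 and 27.0 CPM under vehicle and at 204 and 110 CPM at day 3. In the other cells Pclaf stayed at 0.192 to 6.20 CPM. The summed level of the 8 lymphatic markers in the cells with Mki67 or Top2a was 1347 and 1822 CPM under vehicle and 1092 and 1498 CPM at day 3, next to 1465 to 1720 CPM in the rest. The median depth of these cells was 9428 to 11882 UMIs.

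**Figure D1:**
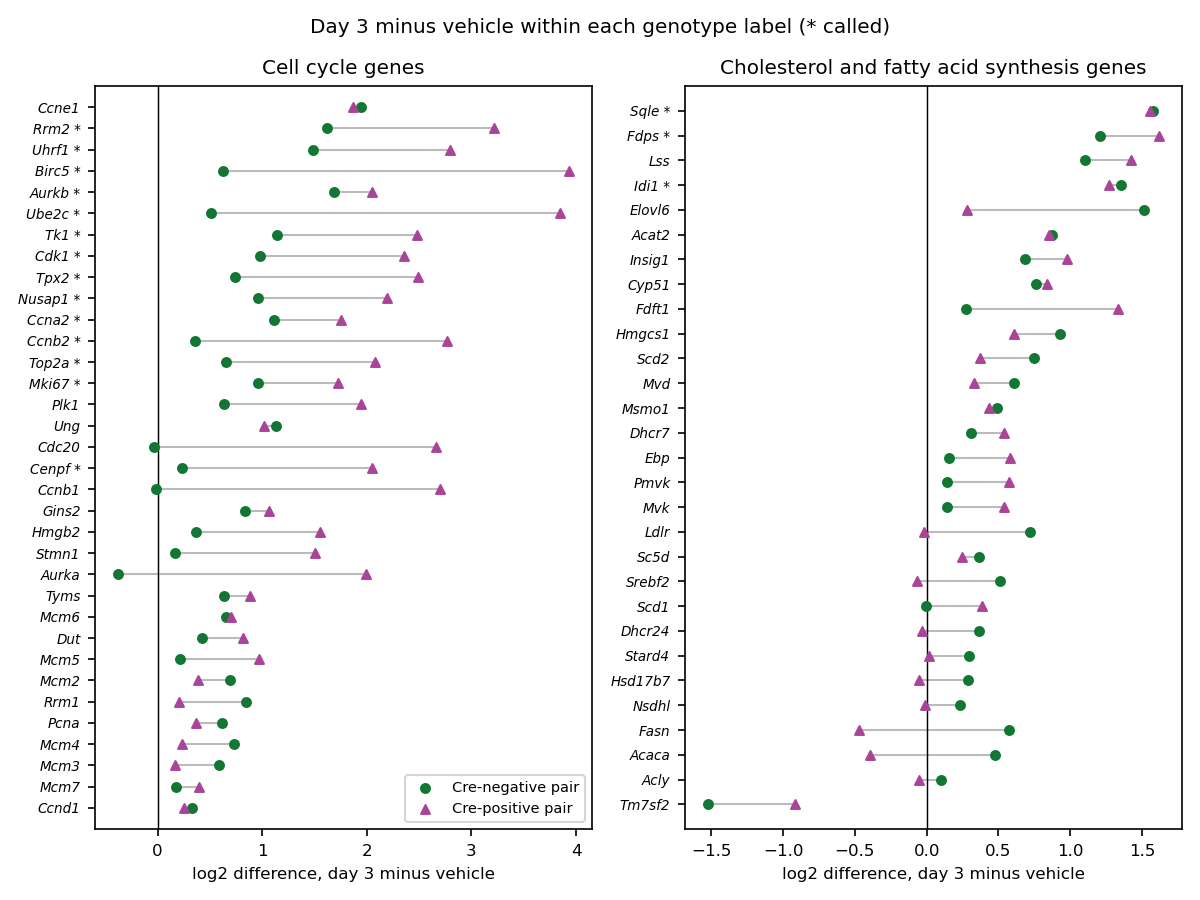
Log2 difference between day 3 and vehicle for each member of the cell cycle list (left) and for 29 of the 30 members of the cholesterol and fatty acid synthesis list (right), in lymphatic cells, with a circle for the Cre-negative pair of libraries and a triangle for the Cre-positive pair. An asterisk marks called genes; 31 of 34 cell cycle genes were higher in both pairs, and the Cre-positive pair differed more for most mitotic genes.

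The summed cell cycle level was higher at day 3 in both pairs in the Ackr4 cells and in the Lyve1 cells. For this, lymphatic cells were divided by whether they held a UMI of Lyve1, of Ackr4 without Lyve1, of Madcam1 without Lyve1, or of none of these; a cell with both Ackr4 and Madcam1 counts in both. The summed level of the cell cycle list in the Ackr4 cells was 1429 and 1019 CPM under vehicle and 2174 and 1815 CPM at day 3. In the Lyve1 cells it was 1305 and 712 CPM and then 1749 and 1248 CPM, so the day 3 Cre-positive library lay below the vehicle Cre-negative one. In the Madcam1 cells the treatments overlapped, with 1704 and 887 CPM and then 1584 and 1020 CPM. Over all lymphatic cells most of the list's summed level came from members that were not called. The sums by group therefore do not show in which cells the called members rose. Differences between these groups of cells were not tested. These groups held 465 and 270 Ackr4 cells under vehicle and 178 and 234 at day 3, 199 and 289 Lyve1 cells and then 168 and 193, and only 18 to 37 Madcam1 cells a library.

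Among the named genes that rose, Ccl20 was the most abundant. Ccl20 is the ligand of the chemokine receptor CCR6, which draws B cells, dendritic cells and some T cells. It was at 228 and 116 CPM under vehicle and at 716 and 811 CPM at day 3. Both day 3 libraries lay far above both vehicle libraries, a difference of 2.25 on the log2 scale (SE 0.42, 4.76-fold, adjusted p = 3.56e-05). The gene lies at chr1:83116766-83119167 on the plus strand of GRCm38. Over Y-linked cells the difference was 1.80 (adjusted p = 0.0442) and without the vehicle Cre-positive library 1.79 (adjusted p = 0.0466). Leaving out the day 3 Cre-negative or Cre-positive library gave 2.32 (adjusted p = 0.0576) and 2.05 (adjusted p = 0.0696).

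More lymphatic cells held Ccl20 at day 3 and those cells held more of it. A Ccl20 UMI was found in 71 (9.04%) and 46 (6.66%) vehicle cells and in 82 (18.1%) and 80 (15.8%) day 3 cells. Thinned to 1000 UMIs the shares were 5.99% (4.43 to 7.88) and 2.89% (1.78 to 4.43) under vehicle and 11.5% (8.71 to 14.8) and 11.9% (9.17 to 15.0) at day 3. No day 3 interval reached a vehicle one, but the intervals cover counting error within 1 library and not the spread between libraries. Free RNA gives such UMIs to cells that lack a gene, and B cells in the same libraries held thinned Ccl20 shares of at most 0.824% at a median depth of 2901 to 3418 UMIs. Within the cells that held Ccl20, its level was 1688 and 1403 CPM under vehicle and 2955 and 3985 CPM at day 3.

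In each library Ccl20 was higher in the cells with Madcam1 than in the Lyve1 cells without it. In cells with Madcam1 and no Lyve1 it was at 822 and 433 CPM under vehicle and at 1962 and 1564 CPM at day 3. In Lyve1 cells it was at 577 and 192 CPM and then at 1368 and 1664 CPM. Most Madcam1 cells were among these, since 98 and 98 vehicle cells and 82 and 62 day 3 cells held both markers. Those cells held 927 and 466 CPM of Ccl20 under vehicle and 2328 and 3426 CPM at day 3. Lyve1 cells without Madcam1 held 47.5 and 43.2 CPM and then 124 and 581 CPM. In cells with Ackr4 and no Lyve1 it was at 0.285 and 0 CPM and then at 0 and 7.65 CPM, the last of these being 15 UMIs. The level was thus higher at day 3 in each group with Madcam1 or Lyve1 and near 0 in the ceiling-type group. Glycam1, a mucin of high endothelial venules that is also listed for the floor, was concentrated in the same cells, at 12021 to 15064 CPM where Ccl20 was found and 630 to 1250 CPM elsewhere. Over all lymphatic cells Glycam1 was at 2274 and 2196 CPM under vehicle and 3728 and 3566 CPM at day 3, which was not called (log2 difference 0.73, SE 0.54). Beside these values, the 8 high endothelial venule markers summed to 3552 and 3560 CPM under vehicle and 4735 and 4780 CPM at day 3, most of it Glycam1. The sum rose by less than Glycam1 alone, so the other venule markers together were lower at day 3 in both pairs. The part of such cells in the Ccl20 result was not tested.

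**Figure D2:**
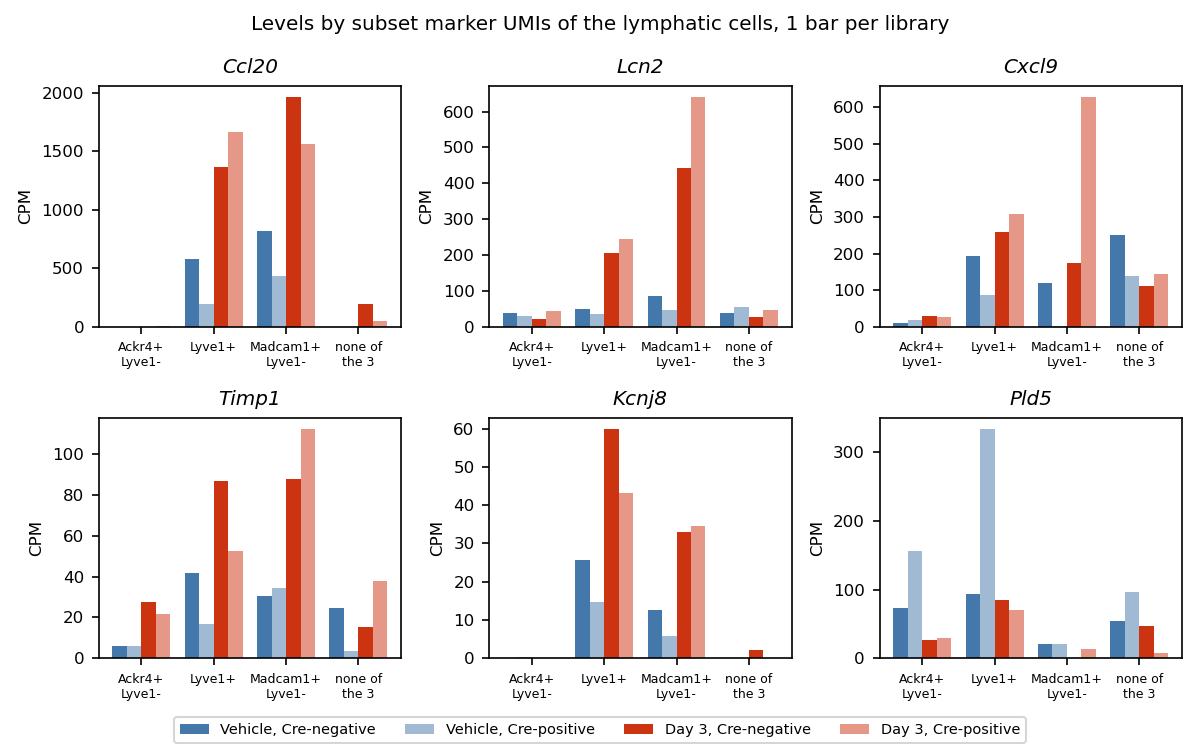
Level in CPM of Ccl20, Lcn2, Cxcl9, Timp1, Kcnj8 and Pld5 in lymphatic cells grouped by marker UMIs, with 1 bar for each library, blue for vehicle and red for day 3. Ccl20 and Lcn2 are high at day 3 in the Lyve1 and the Madcam1 cells, and Ccl20 is near 0 in the Ackr4 cells of all 4 libraries.

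Lcn2, the iron-carrier-binding lipocalin of acute inflammation, followed the same cells. It was at 45.9 and 35.7 CPM under vehicle and at 122 and 163 CPM at day 3 (log2 difference 1.83, SE 0.33, 3.55-fold, adjusted p = 1.26e-05). Both day 3 libraries were above both vehicle libraries. In the Madcam1 cells Lcn2 was at 86.5 and 46.2 CPM under vehicle and at 444 and 639 CPM at day 3, and in the Lyve1 cells at 49.5 and 34.9 CPM and then 205 and 244 CPM. Lyve1 cells without Madcam1 held 34.9 and 11.3 CPM of Lcn2 and then 30.3 and 41.2 CPM, so there the treatments overlapped. In the Ackr4 cells the treatments overlapped, with 39.6 and 29.6 CPM and then 22.4 and 45.4 CPM. Cells with a Ccl20 UMI held 371 and 586 CPM of Lcn2 at day 3, and the other cells 42.9 and 55.1 CPM. Over Y-linked cells the Lcn2 difference was 1.11 and was not called (adjusted p = 0.317), and without the day 3 Cre-positive library it was 1.57 (adjusted p = 0.0746).

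Other genes of signalling and matrix were also called higher. Cxcl9, an interferon-induced chemokine for T cells, was at 88.6 and 60.9 CPM under vehicle and at 145 and 190 CPM at day 3 (log2 difference 1.20, SE 0.33, adjusted p = 0.0292). Timp1, an inhibitor of matrix metalloproteinases, was at 19.8 and 12.7 CPM and then 54.5 and 41.1 CPM (log2 difference 1.60, adjusted p = 1.99e-05). Kcnj8, a potassium channel subunit listed for cortical and medullary sinuses, was at 8.54 and 7.32 CPM and then 28.1 and 20.6 CPM (log2 difference 1.63, adjusted p = 2.3e-05). The treatments did not overlap in any of these genes. Kcnj8 is also a pericyte marker, and the 7 pericyte and smooth muscle markers summed to 78.7 to 99.0 CPM under vehicle and 104 to 179 CPM at day 3. That sum includes Kcnj8 itself, and most of it is Rgs5, at 76.0 and 63.2 CPM and then 145 and 75.1 CPM. The remaining markers together were not higher at day 3 in either pair. Within the lymphatic cells the Ackr4 cells of the 4 libraries held 1 Kcnj8 UMI in all, while the Lyve1 cells were at 25.6 and 14.6 CPM under vehicle and 59.9 and 43.2 CPM at day 3. Timp1 and Kcnj8 kept their calls without either vehicle library and lost them without either day 3 library, where the log2 differences were 1.45 and 1.81 for Kcnj8 and 1.42 and 1.74 for Timp1. Over Y-linked cells Kcnj8 differed by 0.84 and was not called (edgeR adjusted p = 0.9997). Among the fits with 1 library left out, Cxcl9 kept its call only without the vehicle Cre-negative library. Without the vehicle Cre-positive one its log2 difference was 0.97.

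Vegfc, the growth factor that drives lymphatic growth through the receptor Flt4, was at 8.04 and 6.07 CPM under vehicle and at 20.98 and 17.0 CPM at day 3 (log2 difference 1.45, SE 0.31, adjusted p = 0.000514). Both day 3 libraries were above both vehicle libraries. Flt4 itself was at 162 and 215 CPM and then 171 and 176 CPM (log2 difference -0.08). Fgf23, a fibroblast growth factor best known as a bone hormone of phosphate balance, was at 32.7 and 6.96 CPM and then 50.6 and 88.2 CPM (log2 difference 2.08, SE 0.33, adjusted p = 2.73e-07). Nearly all of its UMIs lay in Lyve1 and Madcam1 cells, with at most 2 UMIs in the Ackr4 cells of any library. In the day 3 Cre-positive library 1 cell held 123 of the 390 Fgf23 UMIs. Il6, the gene of an inflammatory cytokine, was also called higher, on 0 and 16 UMIs under vehicle and 10 and 54 at day 3, so that the treatments overlapped. Among the fits with 1 library left out, the calls of Vegfc and Fgf23 held only without the vehicle Cre-negative library. Over 22 alternative fits and choices of cells the log2 differences ran from 0.853 to 1.66 for Vegfc and from 1.14 to 4.21 for Fgf23.

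Serpinb1a and Cryab are among the largest rises by the fit, and both, like other named genes, rest partly on few cells. Serpinb1a, an inhibitor of neutrophil proteases, was at 15.7 and 10.5 CPM under vehicle and at 55.3 and 69.2 CPM at day 3 (log2 difference 2.28, SE 0.30, adjusted p = 1.41e-10). A single cell held 55 of the 211 UMIs of the day 3 Cre-negative library, and another 79 of the 306 in the Cre-positive one. Blood endothelial cells held far more of it, 355 and 320 CPM under vehicle and 911 and 765 CPM at day 3. Cryab, a small heat shock protein, was at 11.4 and 11.6 CPM and then 221 and 28.9 CPM (log2 difference 2.87, adjusted p = 1.99e-12), with 694 of the 842 UMIs of the day 3 Cre-negative library in 1 cell. With the top cell of each library left out Cryab still differed by 2.04. Over 21 alternative fits and choices of cells its difference ran from 1.41 to 4.25, and DESeq2 did not call it (adjusted p = 0.944). Slfn9, a Schlafen family gene, was the last named gene to rise, at 15.1 and 6.60 CPM and then 40.4 and 20.1 CPM (log2 difference 1.53, adjusted p = 6.96e-05).

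**Figure D3:**
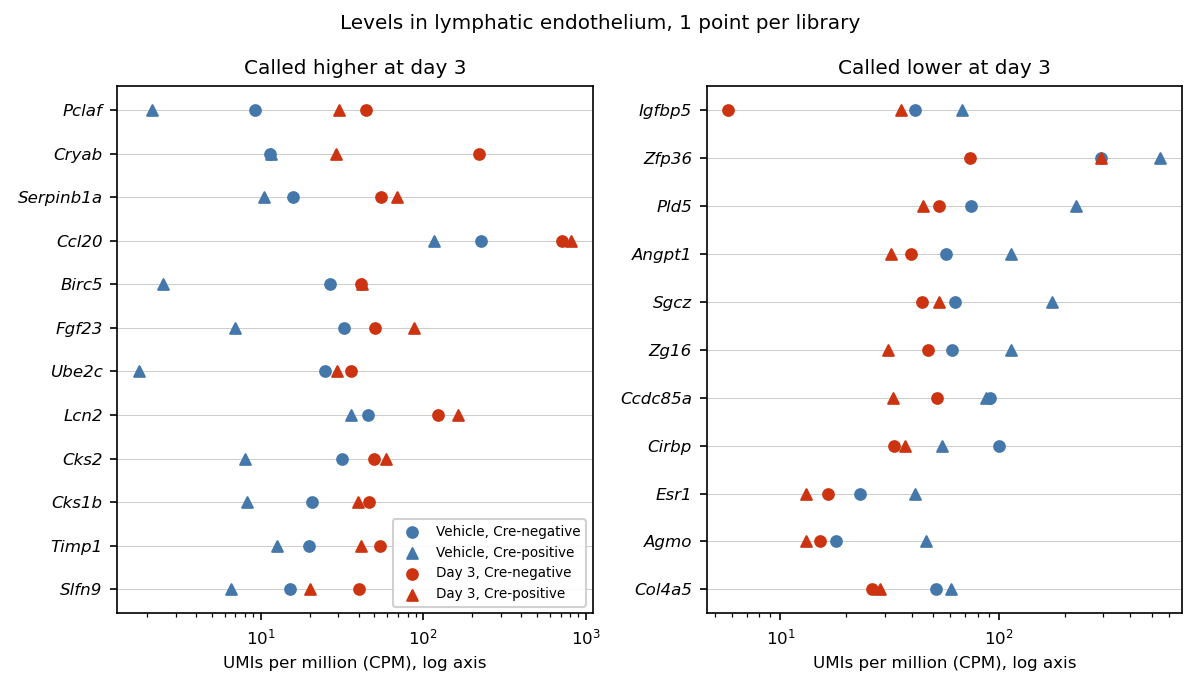
Level of the 12 named genes called higher (left) and the 11 called lower (right) in lymphatic cells, in CPM on a log axis, with 1 point for each of the 4 libraries, blue for vehicle and red for day 3. The treatments do not overlap for any of the 12 genes called higher, and they do not overlap for 10 of the 11 called lower; the vehicle Cre-positive triangle is the lowest point for most cell cycle genes.

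Of these 12 named genes, 12 kept their call without the vehicle Cre-negative library and 6 without the vehicle Cre-positive library (Pclaf, Cryab, Serpinb1a, Ccl20, Lcn2 and Timp1). Serpinb1a and Lcn2 were the only ones to keep it without the day 3 Cre-negative library, and Pclaf, Cryab and Serpinb1a without the day 3 Cre-positive one. Over Y-linked cells 5 were called (Pclaf, Cryab, Ccl20, Cks2 and Cks1b), and by DESeq2 6 (Pclaf, Serpinb1a, Ccl20, Lcn2, Cks1b and Timp1). Serpinb1a alone was called without the genotype term, Pclaf alone without an expression filter, and none over all 6 CD31 libraries.

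A few genes of sterol synthesis rose. Of 30 genes of cholesterol and fatty acid synthesis, 3 were called higher and none lower, beside 1.01% and 0.409% of all genes tested, 29 had a difference above 0, 20 were higher in both pairs, and 1 was lower in both. In 11 genes both day 3 libraries lay above both vehicle libraries and in 1 below, against 15.7% and 19.3% of all genes. The median log2 difference was 0.37, with 0.48 in the Cre-negative and 0.38 in the Cre-positive pair, next to -0.01 for all genes.

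The 3 called genes act in the early and middle steps of the sterol pathway. Fdps, which makes farnesyl diphosphate, was at 45.1 and 18.7 CPM under vehicle and at 106 and 55.8 CPM at day 3 (log2 difference 1.42, SE 0.30, adjusted p = 0.000623). Idi1, the isomerase acting just before it, was at 24.3 and 12.3 CPM and then 63.5 and 28.9 CPM (log2 difference 1.34, adjusted p = 0.000837). Sqle, which oxidises squalene, was at 7.03 and 3.93 CPM and then 22.03 and 11.8 CPM (log2 difference 1.63, adjusted p = 0.000126). Both day 3 libraries were above both vehicle libraries for each, and the day 3 Cre-negative library was the highest. Tm7sf2, a sterol reductase, was the only member with a difference below 0, at 3.01 and 2.14 CPM and then 0.787 and 0.904 CPM (adjusted p = 0.739). Unlike Pclaf, Fdps was found in cells with and without Mki67 or Top2a: in the cells without either it was at 42.4 and 17.7 CPM under vehicle and 103 and 51.9 CPM at day 3. Without the vehicle Cre-positive library the Fdps difference was 0.86 (adjusted p = 0.489), and no member of the list was called over Y-linked cells or when the vehicle Cre-positive or either day 3 library was left out.

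The genes called lower were a mixed set. Pld5, a member of the phospholipase D family, was at 74.7 and 225 CPM under vehicle and at 53.2 and 45.0 CPM at day 3 (log2 difference -1.38, SE 0.34, adjusted p = 0.00545). Both day 3 libraries lay below both vehicle libraries, but the Cre-negative pair differed by -0.50 and the Cre-positive pair by -2.24. Without the vehicle Cre-positive library the difference was -0.57 (adjusted p = 0.775). Over Y-linked cells Pld5 was called, at -1.73 (adjusted p = 0.0133). In the Ackr4 cells Pld5 was at 72.6 and 155 CPM and then 27.0 and 30.1 CPM, and in the Lyve1 cells at 93.5 and 333 CPM and then 84.4 and 69.7 CPM.

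Igfbp5, which binds insulin-like growth factors, was at 41.2 and 68.0 CPM under vehicle and at 5.77 and 35.7 CPM at day 3 (log2 difference -1.73, SE 0.31, adjusted p = 1.46e-05). The day 3 Cre-negative library was far below the rest, and without it the difference was -0.53 (adjusted p = 0.939). Igfbp5 was found in only 26 and 27 vehicle cells and in 8 and 16 day 3 cells. A single cell held 63 of its 158 UMIs in the day 3 Cre-positive library. In Lyve1 cells alone the pairs moved in opposite directions, with 25.1 and 1.53 CPM under vehicle and 2.99 and 35.4 CPM at day 3. Angpt1, a ligand of the endothelial receptor Tek, was at 57.4 and 114 CPM and then 39.6 and 32.1 CPM (log2 difference -1.16, SE 0.31, adjusted p = 0.0199). Col4a5, a chain of basement membrane collagen, was at 51.3 and 60.1 CPM and then 26.2 and 28.5 CPM (log2 difference -0.996, adjusted p = 0.048), with differences of -0.971 and -1.001 in the pairs. Cirbp, a cold-inducible RNA-binding protein, was at 100 and 55.1 CPM and then 33.0 and 37.3 CPM (log2 difference -1.06, adjusted p = 0.0426). Esr1, the oestrogen receptor, was at 23.1 and 41.2 CPM and then 16.5 and 13.1 CPM (log2 difference -1.05, adjusted p = 0.0299). Over alternative fits and choices of cells the smallest falls were -0.65 for Angpt1, -0.86 for Col4a5, -0.62 for Cirbp and -0.61 for Esr1.

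The remaining named genes called lower were Sgcz, Zg16, Ccdc85a, Agmo and the immediate-early gene Zfp36, with log2 differences from -1.41 (Zfp36) to -1.02 (Agmo). Over the alternative fits and choices of cells the smallest falls were -0.30 for Agmo, -0.32 for Sgcz, -0.45 for Zfp36, -0.61 for Zg16 and -0.78 for Ccdc85a. Of the 11 named genes called lower, 8 kept the call without the vehicle Cre-negative library. Only Cirbp kept it without the vehicle Cre-positive library, only Igfbp5 without the day 3 Cre-positive one, and none without the day 3 Cre-negative one. DESeq2 called 2 of the 11 (Igfbp5 and Zfp36), and 2 were called without the top 5% of cells by UMIs (Igfbp5 and Pld5). Over Y-linked cells 3 were called (Pld5, Angpt1 and Ccdc85a). In cells with no Lyve1 UMI 2 were called (Igfbp5 and Pld5), and in cells with a Lyve1 UMI 10. None was called without the genotype term, without an expression filter or over all 6 CD31 libraries. Among genes left out of naming, 3 haemoglobin genes were called lower. Their UMIs lay mostly in 1 cell: Hbb-bs had 1238 and 108 UMIs under vehicle, 1235 of the first in 1 cell, and 0 and 1 at day 3.

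Immediate-early and heat shock genes were often lower at day 3 in both pairs, but few separated the treatments. Of 23 genes, 2 were called lower, against 0.409% of all genes, and none higher. The median was -0.52 (-0.88 in the Cre-negative and -0.11 in the Cre-positive pair). In both pairs 12 were lower and 1 higher, next to 3145 and 3008 of all 12716 genes. In 3 both day 3 libraries lay below both vehicle libraries, against 19.3% of all genes, and in 0 above, against 15.7%. Zfp36, a protein that speeds decay of inflammatory messages, was at 292 and 548 CPM under vehicle and at 73.7 and 292 CPM at day 3 (log2 difference -1.41, SE 0.38, adjusted p = 0.0228). Egr2, an early response transcription factor, was at 7.37 and 9.64 CPM and then 1.31 and 5.43 CPM (adjusted p = 0.0426). Fos, of the AP-1 factor, was at 1368 and 1976 CPM and then 378 and 1582 CPM and was not called. The day 3 Cre-negative library was the low one in each. Without it the list's median was 0.10 and no member was called. Such genes also respond to tissue digestion, whose part was not tested.

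The medians of the chemokine and interferon lists differed in sign between the pairs. The 21 tested genes of chemokines, scavengers and egress had a median of -0.35 in the Cre-negative pair and 0.39 in the Cre-positive pair, and 9 of them had the same direction in both, where 48.4% of all genes did. Ccl20 and Cxcl9, higher in both pairs, were called, against 1.01% of all genes called higher. Ccl2, a monocyte chemokine, shows the split, at 171 and 156 CPM under vehicle and at 64.5 and 281 CPM at day 3. None of 43 interferon response genes was called, with medians of -0.21 and 0.34, and 17 had the same direction in both pairs. Both counts are near the shares over all genes, 1.42% called and 48.4% with the same direction. In both pairs 5 were higher and 12 were lower, next to 3008 and 3145 of all 12716 genes. The list's summed level was 7910 and 7281 CPM under vehicle and 8340 and 10161 CPM at day 3, higher in both pairs. Of the 43 genes, 4 had both day 3 libraries above both vehicle libraries and 8 had both below, against 15.7% and 19.3% of all genes. Ifitm3, a membrane protein that blocks virus entry and one of the abundant members, was among the 4. It was at 2857 and 2426 CPM and then 3847 and 4405 CPM, short of a call. In the Cre-negative pair the summed level rose by less than Ifitm3 alone, so the other members together were lower there. In the Cre-positive pair the summed level rose by more than Ifitm3. Whether the pairs differed could not be tested with 1 library in each cell of the design.

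**Figure D4:**
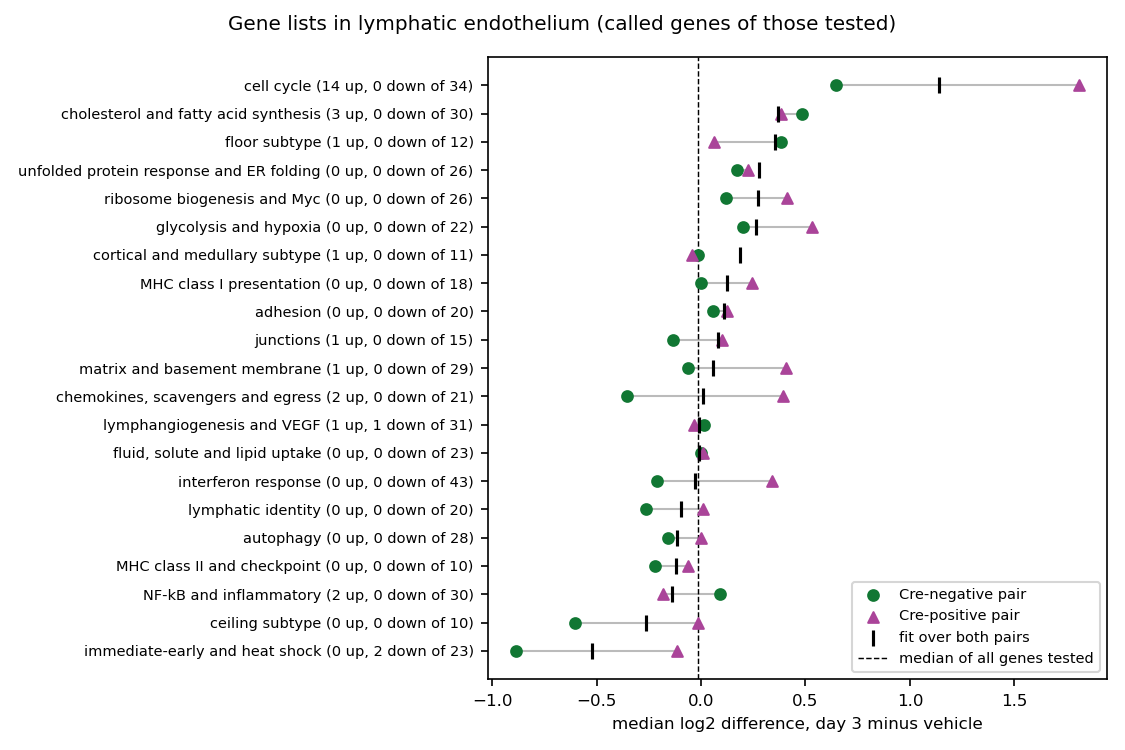
Median log2 difference between day 3 and vehicle over each of 21 gene lists in lymphatic cells, for the Cre-negative pair (circle), the Cre-positive pair (triangle) and the fit over both (bar), with the median of all genes tested as a dashed line. The cell cycle list stands farthest to the right and the immediate-early list farthest to the left; in chemokines, interferon response and junctions the pairs lie on opposite sides of 0 by at least 0.1 each.

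Few genes that define lymphatic cells and their sinus types were called. At 1.42% of all genes called in either direction, lists of this size hold few calls or none. None of 20 lymphatic identity genes was called, with a median of -0.10. Of 12 floor genes only Ccl20 was called, of 10 ceiling genes none, and of 11 tested cortical and medullary genes only Kcnj8. Ackr4 was at 804 and 469 CPM under vehicle and at 479 and 518 CPM at day 3. Only the vehicle Cre-negative library was high, and the same was seen in cells: thinned to 1000 UMIs, 43.4% and 26.8% of vehicle cells and 27.9% and 31.8% of day 3 cells held an Ackr4 UMI. Of the 10 ceiling genes, 4 had both day 3 libraries below both vehicle libraries and 1 had both above, against 19.3% and 15.7% of all genes. Among the 4, Btnl9, a butyrophilin-like protein, was at 101 and 112 CPM and then 61.9 and 51.3 CPM (adjusted p = 0.183), and Cldn11, a claudin, at 107 and 132 CPM and then 59.5 and 70.8 CPM (adjusted p = 0.257). Marco was at 31.8 and 343 CPM under vehicle and at 155 and 110 CPM at day 3, a wider gap between the vehicle libraries than between treatments.

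No member was called in 11 of the 21 lists, among them antigen presentation by MHC class I (18 genes, median 0.12) and class II with checkpoint genes (10 tested, -0.12), adhesion (20, 0.11) and uptake of fluid, solutes and lipids (23, -0.01). Members above 0 were 22 of 26 for the unfolded protein response and ER folding (median 0.28), 21 of 26 for ribosome biogenesis and Myc (0.28) and 17 of 22 for glycolysis and hypoxia (0.26). Of all genes tested, 6106 of 12716 lay above 0. In 11 glycolysis and hypoxia genes both day 3 libraries lay above both vehicle libraries and in 2 below. For the unfolded protein response and ER folding these counts were 8 and 1, and for ribosome biogenesis and Myc 8 and 2. Of all genes tested 15.7% lay above and 19.3% below in this way.

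Markers of blood cells were low in the lymphatic sums, while those of other endothelium were not. B cell markers summed to 25.3 to 81.7 CPM under vehicle and 19.7 to 28.7 CPM at day 3, and T and NK cell markers to 9.64 to 21.3 CPM and 13.6 to 18.1 CPM. Macrophage, monocyte and dendritic cell markers summed to 20.9 to 54.3 CPM and 14.2 to 23.3 CPM, with Itgax at 0 and Lyz2 called lower. Neutrophil markers, with Ly6g at 0, summed to 1.43 to 77.5 CPM under vehicle and 0.524 to 3.39 CPM at day 3. Blood endothelial markers summed to 845 to 967 CPM and 1045 to 1065 CPM, and fibroblast markers, with Lum and Mfap5 at 0, to 68.2 to 119 CPM and 109 to 166 CPM. Nearly all of the fibroblast sum was Dcn, at 108 and 58.0 CPM under vehicle and 97.5 and 155 CPM at day 3. The blood endothelial sum, like the high endothelial venule and pericyte sums given above, was higher in both day 3 libraries than in both vehicle libraries. Most of the pericyte sum was Rgs5, and the venule markers other than Glycam1 were together lower at day 3 in both pairs. The part of such cells in the results was not tested. In an alternative, cells with a UMI of B, T or myeloid cell, fibroblast or pericyte genes (94 to 197 a library) were left out. It gave 156 calls, 119 of them among the 180. Lcn2 then differed by 0.65 (adjusted p = 0.753), Cxcl9 by 0.47, Vegfc by 0.85 and Kcnj8 by 1.12, and none of these was called. Ccl20 was called at 2.34, and 5 of the 11 named genes called lower lost their call (Sgcz, Zg16, Ccdc85a, Cirbp and Esr1), with log2 differences from -1.12 to -0.85 next to -1.09 to -1.05 over all lymphatic cells. The cell cycle median was 1.59, with 16 of 33 called. The genes used to leave out cells include Rgs5, whose lymphatic level is given below. The cells left out held 717 and 365 CPM of Ccl20 under vehicle and 2085 and 2275 CPM at day 3, and the cells kept 30.6 and 54.8 CPM and then 92.0 and 440 CPM.

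The day 3 response of lymphatic cells was set against that of the 16613 blood endothelial cells of the same libraries, which held at least 2 UMIs of Pecam1 and Cdh5 and none of Prox1, Mmrn1, Ptprc, Cd79a or Cd3e. The difference in response was called for 76 of 15228 genes (0.499%), 36 higher in lymphatic cells and 40 lower. DESeq2 called 10 higher and 20 lower, another scaling (relative log expression) 9 and 16, and leaving out the day 3 Cre-negative library none, with 969 at an unadjusted p below 0.05.

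Cell cycle levels were higher at day 3 in both classes. The 34 genes summed to 1206 and 1080 CPM in blood endothelium under vehicle and to 2434 and 2623 CPM at day 3, next to 1380 and 818 CPM and then 1904 and 1541 CPM in lymphatic cells. All 34 were higher in both pairs in blood endothelium. Thinned to 1000 UMIs, 0.992% and 0.713% of blood endothelial cells held a Mki67 UMI under vehicle and 3.46% and 5.46% at day 3. Of the 34 genes, 30 had a smaller response in lymphatic cells, with a median difference of -0.63 against 0.04 over all genes, and 2 of them, Top2a and Cenpf, were called. Top2a was at 39.2 and 17.1 CPM in blood endothelium and then at 120 and 147 CPM. Sterol genes had no called difference between the classes (median -0.01 over 30 genes).

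A few genes responded differently in the classes. Ccl20 was at 6.84 and 1.71 CPM in blood endothelium under vehicle and at 16.6 and 9.65 CPM at day 3, and its difference in response was not called. Cxcl9 and Vegfc rose in lymphatic cells and their responses were called larger there. In blood endothelium Cxcl9 was at 193 and 195 CPM and then 212 and 173 CPM. Vegfc was there at 43.6 and 41.7 CPM and then 47.0 and 49.8 CPM. Neither call held in cells of at least 2000 UMIs, at 5% mitochondrial UMIs or less, or without an expression filter. Nor did they hold over all 6 CD31 libraries or over Y-linked cells. In each of these Rgs5 was the only gene called higher. Tbxa2r, the thromboxane receptor, rose in lymphatic cells from 16.9 and 18.6 CPM to 39.9 and 47.5 CPM, while blood endothelium held 32.0 and 29.4 CPM and then 25.4 and 36.1 CPM (difference in response 1.34, SE 0.24, adjusted p = 0.00285). Rgs5, a regulator of G protein signalling and a pericyte marker, was at 76.0 and 63.2 CPM and then 145 and 75.1 CPM in lymphatic cells, and at 25.7 and 53.3 CPM and then 11.2 and 12.2 CPM in blood endothelium (difference in response 2.28, SE 0.22, adjusted p = 2.93e-08). The part of pericyte RNA was not tested, and the pericyte marker sums given above are mostly Rgs5 itself.

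The opposite was seen for Nts, Pld5 and Ehd3. Nts, the gene of neurotensin, was at 291 and 254 CPM and then 268 and 421 CPM in lymphatic cells, and at 25.8 and 6.46 CPM and then 116 and 83.7 CPM in blood endothelium (difference in response -2.58, SE 0.23, adjusted p = 6.03e-09). Pld5 differed by -2.53 (SE 0.29, adjusted p = 1.6e-06), but blood endothelium held only 0.669 to 2.73 CPM of it. Ehd3, a membrane trafficking protein, was at 48.1 and 81.0 CPM and then 43.0 and 32.6 CPM in lymphatic cells and at 42.6 and 62.5 CPM and then 132 and 85.5 CPM in blood endothelium (difference in response -1.75, SE 0.22, adjusted p = 9.59e-06). Without the day 3 Cre-negative library none of these calls held. Rgs5 and Nts also lost theirs without the vehicle Cre-positive or the day 3 Cre-positive library, while Ehd3 and Pld5 kept theirs without each of the other 3 libraries, and Tbxa2r without the vehicle Cre-positive library alone. Of 22 alternatives, Pld5 and Ehd3 kept their calls in 19, Nts in 15 and Tbxa2r in 8, and Rgs5 kept its call in 17 of 21. The other 11 named genes kept theirs in 2 (Plce1 and Adamtsl1) to 10 (Dcn and Mctp1). Over Y-linked cells only Rgs5 kept its call.

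**Figure D5:**
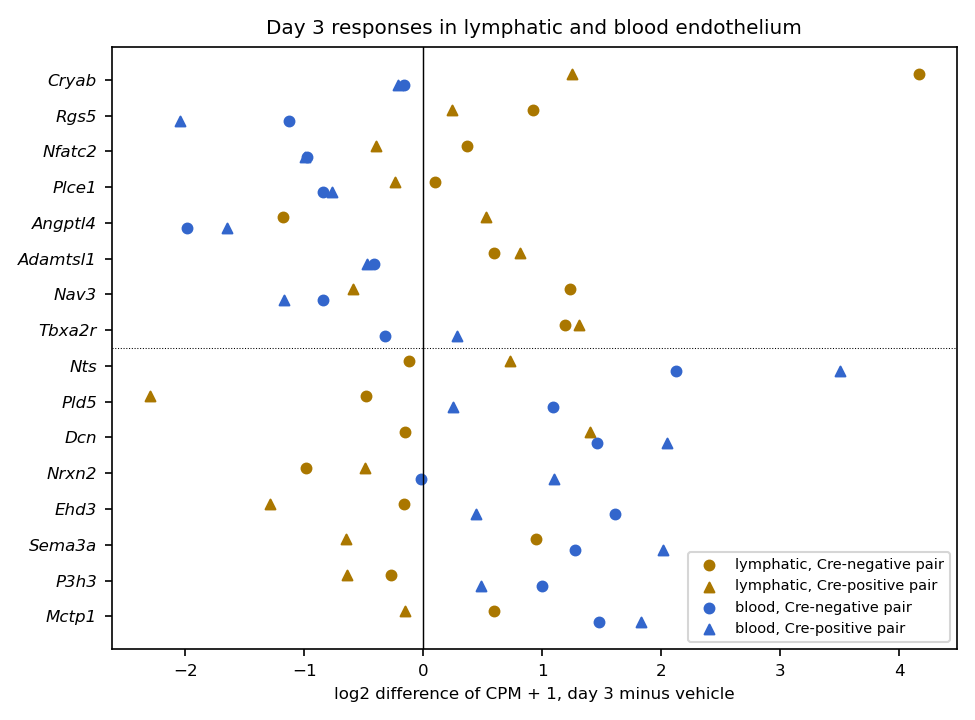
Log2 difference of CPM + 1 between day 3 and vehicle for the 16 named genes whose response differed, in lymphatic cells (brown) and blood endothelium (blue), with a circle for the Cre-negative and a triangle for the Cre-positive pair. Genes above the dotted line had the higher response in lymphatic cells and genes below it the lower one. For Cryab, Rgs5, Adamtsl1, Pld5, Ehd3 and P3h3 the classes lie on opposite sides of 0 in both pairs. In blood endothelium Cryab, Adamtsl1 and Pld5 stood at 0.669 to 2.73 CPM and P3h3 at 1.44 to 6.36 CPM. Their blood responses therefore rest on low levels.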

How the data were processed

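Single-cell RNA libraries (10x 3' chemistry) of CD31 and CD45 fractions were deposited as raw UMI count matrices of all barcodes (whole-number counts, per the file headers). Cell Ranger 7.0.1 and mm10 are named in the submitters' processing notes, while the file headers name Cell Ranger 4. The annotation release and strand setting were not given in the sources used here. Positions are from GENCODE M21 (GRCm38), matched by gene ID for 32158 of 32285 features (99.6%).

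The lymphatic gate was applied cell by cell and counts were summed per library. No doublet caller was run, and cells with UMIs of other classes or the top 5% by UMIs were left out as alternatives. edgeR 4.0.16 (R 4.3.3; TMM, filterByExpr, glmQLFit, glmQLFTest) fitted genotype plus treatment over 4 libraries, with Benjamini-Hochberg adjustment over all genes tested. The comparison with blood endothelium added library as a block and the class by treatment term. Counts and their library totals set the precision; DESeq2 1.42.0 was an alternative. On simulated data of 12716 genes with 200 changed, the lymphatic fit recovered 43% of 2-fold and 100% of 4-fold changes with 6 false calls. The simulated counts had the spread that the fit itself assumed and no genotype or library effect. The changed genes were drawn from those with a mean of at least 20 CPM. The false calls therefore do not measure those in the real libraries.

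The gate, the gene lists and the tests were chosen with earlier results of these data known. Named genes are the 12 largest called changes in each direction with a mean of at least 20 CPM (8 for the class comparison). The rule passed over gate genes, sex chromosome markers, haemoglobins, antigen receptor segments, mitochondrial and ribosomal protein genes, unnamed models, and genes for which expected free RNA was a large part of the level. Up to 4 called members of each list are added, otherwise its most abundant. Genes named outside this rule (Flt4, Tm7sf2, Pcna, Ccl2, Btnl9, Cldn11, Marco and Fos among them) were chosen after their values were seen. Some genes are not reported here, 1 of them among the largest called lower, which leaves 11 in that direction. Promoters come from RefSeq (GRCm38.p6).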

Additional observations from a re-analysis of the deposited data

Results flagged for a closer look

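The day 3 response differed between lymphatic and blood endothelium, by edgeR's test of the class by treatment term, for 16 named genes. The difference in response (lymphatic minus blood, log2) was positive for 8 of them: Cryab 3.05, Rgs5 2.28, Nfatc2 1.69, Plce1 1.58, Angptl4 1.53, Adamtsl1 1.52, Nav3 1.38 and Tbxa2r 1.34. It was negative for the other 8: Nts -2.58, Pld5 -2.53, Dcn -1.98, Nrxn2 -1.82, Ehd3 -1.75, Sema3a -1.55, P3h3 -1.45 and Mctp1 -1.41. Each difference had the same sign in both pairs of libraries. Blood endothelium held at most 2.83 CPM of Cryab, Nfatc2, Plce1, Adamtsl1, Pld5 and Nrxn2 in any of the 4 libraries. It held 0.641 to 5.78 CPM of Dcn and 1.44 to 6.36 CPM of P3h3. The blood responses of these genes rest on low levels. Dcn, a fibroblast matrix gene, was at -0.83 (adjusted p = 0.642) when the top cell of each library was left out. No gene was called when the day 3 Cre-negative library was left out.

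In 10 of 21 gene lists the lymphatic median difference had opposite signs in the pairs, and in 3 of these both medians were at least 0.1 from 0: -0.35 (Cre-negative) and 0.39 (Cre-positive) for chemokines, scavengers and egress, -0.21 and 0.34 for the interferon response, and -0.13 and 0.10 for junctions. The difference between pairs was not tested, since each had 1 library a treatment.

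A red fluorescent protein feature, mRFP, which no label mentions, held 930 UMIs in the CD31 library of day 3 Cre-positive, 364 in that of vehicle Cre-positive and 342 in that of day 7 Cre-positive, counted over whole libraries. It is listed for these 3 libraries and the day 7 Cre-negative one, which held 0, and for none of the other 8.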

How the results depend on the processing

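The number of genes called in lymphatic cells, 180, was 24 by DESeq2, 7 without an expression filter, 6 without the genotype term, 0 over all 6 CD31 libraries, 104 without the top 5% of cells by UMIs, 44 over Y-linked cells and 119 over cells without a Lyve1 UMI. Leaving out 1 library gave 9 to 267. The other alternatives, among them other size factors, stricter gates and free RNA subtracted, gave 131 to 185. The 180 genes kept their direction in all alternatives that tested them except 1 gene each without cells of other classes, over Y-linked cells, over Lyve1 cells and without the day 3 Cre-positive library, and 3 genes without the vehicle Cre-positive library.

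The number of genes whose response differed from blood endothelium, 76, was 30 by DESeq2 (20 of them among the 76), 25 by relative log expression, 7 without a filter, 3 without the genotype term, 3 over 6 libraries, 137 by the legacy test, 7 in cells of at least 2000 UMIs, 7 at 5% mitochondrial UMIs or less, 9 without the top 5% of cells, 1 over Y-linked cells, 8 with Prox1 and Mmrn1 at 3 or more, 1 over Lyve1 cells, 13 without the top cell (chosen after seeing the data) and 35 with free RNA subtracted. It was 65 by robust dispersion, 102 without cells with UMIs of other classes, 77 over cells without a Lyve1 UMI and 91 with sums thinned. Leaving out 1 library gave 0 to 38. The cause of these shifts was not tested.

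Igfbp5 was fitted at 0.70 over Lyve1 cells, where its pairs differ in sign. With at least 2000 UMIs the lymphatic share of endothelial cells was 16.7% in the vehicle Cre-positive library and 13.0% and 10.7% at day 3, and with at least 3 UMIs of Prox1 and Mmrn1 it was 15.3% in the vehicle Cre-negative library and 10.1% and 7.95% at day 3.

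By replicate number no pairing exists. No paired analysis was possible because each group holds 1 library, other than pairing by the genotype label, which the fit already does through its genotype term. A fit over cells with Xist alone was not run, since the vehicle Cre-positive library has 0 such cells without a Y-linked UMI. Where a library was left out, the genotype term was dropped with it, and the lone one of its treatment was assumed to vary like the other treatment's.

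Low genes limit what can be read: 89 of the 128 genes called higher and 35 of the 52 called lower had a mean below 20 CPM.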

Other observations

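The day 7 lymphatic cells (1029 Cre-negative and 965 Cre-positive) entered no test. For all 12 named genes called higher at day 3, both day 7 libraries lay below both day 3 libraries, and so they did for the 14 called cell cycle genes. Of all 12716 genes, 19.5% had both day 7 libraries below both day 3 libraries and 25.1% had both above. Because day 3 libraries chose the named genes, part of their pattern is built in. Ccl20 was at 124 and 306 CPM on day 7, next to 228 and 116 CPM under vehicle and 716 and 811 CPM on day 3. Lcn2 was at 53.7 and 36.5 CPM, Pclaf at 12.6 and 10.8 CPM and Serpinb1a at 10.7 and 12.7 CPM. The summed level of the 34 cell cycle genes was 1179 and 1212 CPM. Of the 11 named genes called lower, 9 had both day 7 libraries above both day 3 libraries. Pld5 was at 102 and 127 CPM, and Cirbp at 89.7 and 59.6 CPM, within the range of the vehicle libraries.

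In the 6 CD45 libraries 16 cells passed the lymphatic gate, too few to describe.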
